A study of Arabidopsis thaliana with 12 samples.

Results

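The 39 nuclear genes described here encode proteins of the plastid ribosome of Arabidopsis thaliana, out of 27655 genes listed in each library. They were given as a list of locus codes and not chosen by their values in these libraries. The list holds 24 proteins of the large (50S) subunit, 9 of the small (30S) subunit and 6 plastid-specific ribosomal proteins (PSRP). Names follow the unified ribosomal nomenclature, in which u, b and c stand for universal, bacterial-type and chloroplast. All 39 were tested, and the lowest read count of any of them in any library was 1343.

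The plastid ribosome is of bacterial type and makes the proteins that the plastid genome encodes, among them core subunits of both photosystems and the large subunit of Rubisco. Its rRNAs and some of its proteins are encoded in the plastid, while the remaining proteins are translated in the cytosol and imported, so that the ribosome is built from the products of 2 genomes. Loss of single nuclear-encoded members ranges in effect from embryo arrest to pale leaves in Arabidopsis, and the genes are most active in young, greening tissue.

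Polyadenylated RNA of whole seedlings was sequenced from 4 groups of 3 libraries. The wild type was WT Col (N6000), and the mutant, named geralt in the genotype label and phr2 in the sample titles, was the T-DNA insertion line SALK_116579, so every comparison of genotypes rests on 1 insertion line. Both genotypes were harvested at 5 and at 12 days of age from sterile culture on B5 medium with sucrose, under days shorter than nights. The replicates are described as biological, and how many seedlings made up each is not stated, so p-values measure the spread between these libraries. PHR2 (AT2G47590), named for its similarity to photolyases, is the gene the titles point to.

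Total gene reads ran from 41.6 to 115.03 M reads per library. PHR2 stood at 207, 89.2 and 271 CPM (reads of a gene per 1000000 reads of the library, scaled by TMM) in the wild-type libraries 2, 4 and 8 of 5 days, and at 39.7, 20.6 and 28.0 CPM in the geralt libraries 1, 3 and 7, a log2 fold change of -2.68 (SE 0.37, edgeR adjusted p = 0.0128), and it fell as far at 12 days (-2.80, edgeR adjusted p = 0.0193). GLK1 (AT2G20570), a transcription factor that activates photosynthesis genes, fell by 2.65 and 2.70 at the 2 ages. Wild-type library 4 was lower than libraries 2 and 8 for both. All 13 root markers listed had reads in all 12 libraries, and their summed level was 1538 to 2855 CPM in wild type and 1739 to 3029.8 CPM in geralt at 5 days, and 678 to 3022 and 2102 to 3349.8 CPM at 12 days. The ranges overlapped at both ages, and the part of tissue make-up in the values below was not tested. Of 10 seed markers, 1 to 8 had any reads in a library, at a summed level of at most 10.6 CPM. RNA of whole seedlings cannot tell fewer green cells from less RNA per cell.

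The 250 bases before the annotated start of each member gene were searched on both strands for 4 short motifs known from plant promoters. TGGGCC, the core of the site II element found before many cytosolic ribosomal protein genes, occurred in 12 of 39 member windows (30.8%), against 15.9% of 20950 windows of nuclear protein-coding genes tested and 67.6% of 34 cytosolic ribosomal protein genes. It was in 6 of 9 small subunit windows, 5 of 24 large subunit windows and 1 of 6 plastid-specific windows. GATAAG, the I-box core known from light-regulated genes, was in 10 of 39 member windows (25.6%), against 12.4% of all windows. AAACCCTA, the telo box, was in 4 of 39 (10.3%, against 3.48%), and CACGTG, the G-box, in 3 of 39 (7.69%, against 7.19%). The motifs were matched by letters only, and of the 39 windows 18 overlapped a neighbouring listed gene.

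Windows of 5 members are shown, chosen because the results below turn on them: bL27c, whose log2 fold change at 5 days lay farthest below 0, bL19c-2, among the members called lower in the fit to the libraries of 5 days alone, the gene pair for bL12c, whose partners had like values across libraries, and PSRP1, which lay farthest below 0 at 12 days. They are read 5′ to 3′ toward the gene from TAIR10.1, in which all 39 members have the start and end that the files give, and capitals mark matches to the motifs on either strand. The bL27c window lies at chr5:16410532-16410781 on the plus strand and holds 1 GATAAG, written CTTATC on the strand shown.
bL27c: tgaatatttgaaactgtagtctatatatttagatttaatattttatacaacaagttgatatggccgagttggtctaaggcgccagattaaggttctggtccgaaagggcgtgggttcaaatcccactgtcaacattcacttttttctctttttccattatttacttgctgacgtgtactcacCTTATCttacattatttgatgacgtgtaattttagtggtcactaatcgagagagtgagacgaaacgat
The window of bL19c-2 at chr4:9779974-9780223, plus strand, holds 5 matches to TGGGCC, among them overlapping matches on both strands.
bL19c-2: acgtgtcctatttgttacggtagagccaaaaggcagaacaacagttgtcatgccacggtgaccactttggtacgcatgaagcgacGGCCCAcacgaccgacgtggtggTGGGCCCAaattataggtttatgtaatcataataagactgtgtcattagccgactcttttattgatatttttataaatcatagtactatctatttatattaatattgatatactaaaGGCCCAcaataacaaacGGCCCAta
The windows of bL12c-A at chr3:10318205-10318454 and bL12c-C at chr3:10324538-10324787, both on the plus strand, hold none of the motifs.
bL12c-A: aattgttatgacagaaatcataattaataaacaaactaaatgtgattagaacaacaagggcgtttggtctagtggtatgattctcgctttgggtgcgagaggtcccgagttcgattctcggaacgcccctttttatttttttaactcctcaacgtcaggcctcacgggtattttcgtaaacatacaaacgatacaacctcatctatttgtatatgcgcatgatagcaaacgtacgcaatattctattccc
bL12c-C: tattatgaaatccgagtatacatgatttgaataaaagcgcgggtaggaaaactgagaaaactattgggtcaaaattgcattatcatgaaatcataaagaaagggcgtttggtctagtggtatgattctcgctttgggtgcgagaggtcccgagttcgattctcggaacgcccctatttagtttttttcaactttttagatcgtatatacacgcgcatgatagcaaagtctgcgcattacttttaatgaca
The PSRP1 window at chr5:8365351-8365600, plus strand, holds 2 matches to GATAAG, both as CTTATC.
PSRP1: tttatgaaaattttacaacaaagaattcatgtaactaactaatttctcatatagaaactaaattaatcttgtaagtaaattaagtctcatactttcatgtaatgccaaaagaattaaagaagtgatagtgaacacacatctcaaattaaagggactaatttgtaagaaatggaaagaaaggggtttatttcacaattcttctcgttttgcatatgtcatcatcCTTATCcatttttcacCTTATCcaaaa
A tRNA gene is annotated inside 3 of these windows and in no other member's window: a tRNA-Leu gene (AT5G40945) at chr5:16410585-16410665 before bL27c, and a tRNA-Pro gene each at chr3:10318262-10318333 (AT3G27825) before bL12c-A and at chr3:10324639-10324710 (AT3G27845) before bL12c-C, all on the plus strand.

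Levels of the members were compared per transcript length, as the TPM values that the authors deposited, which divide reads by length and sum to 1000000 in each library. Summed over the 39 members they made up 1.51% to 2.16% of all TPM in a library. The 3 classes covered wide and overlapping ranges. In wild type at 5 days the median member of the large subunit stood at 426 TPM, that of the small subunit at 491 TPM and that of the plastid-specific proteins at 182 TPM.

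The highest member was uS17c (AT1G79850), whose bacterial counterpart binds 16S rRNA early in assembly, at 1621 ± 579.7 TPM (SD, n = 3) in wild type at 5 days and 1838 ± 623 TPM in geralt. In the large subunit bL17c (AT3G54210) was highest, at 1409 ± 109 and 1289 ± 326 TPM in the same groups. Among the plastid-specific proteins PSRP4 (AT2G38140), a small subunit component, was highest, at 566 ± 146 and 523 ± 91.8 TPM. For these 3 the genotypes differed at 5 days by less than the larger of both groups' SDs.

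At the low end of the TPM scale were bL19c-1 (AT5G47190) in the large subunit, at 117 ± 6.72 TPM in wild type and 66.2 ± 6.31 TPM in geralt at 5 days, bS1c (AT5G30510), related to the bacterial mRNA-binding protein S1, at 116 ± 5.79 and 68.5 ± 11.2 TPM, and PSRP1 (AT5G24490), a relative of bacterial hibernation factors, at 113 ± 4.93 and 81.9 ± 19.4 TPM. The highest member exceeded the lowest 14.4-fold in wild type and 27.8-fold in geralt at 5 days, although one ribosome holds a single copy of most of these proteins. The order of the 39 mean TPM values was close to the same in all groups, with Spearman's rho between group means from 0.935 to 0.980 across the 39 genes, which share their transcript lengths. Genes are not independent replicates, so the rho is given as a description.

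**Figure D1:**
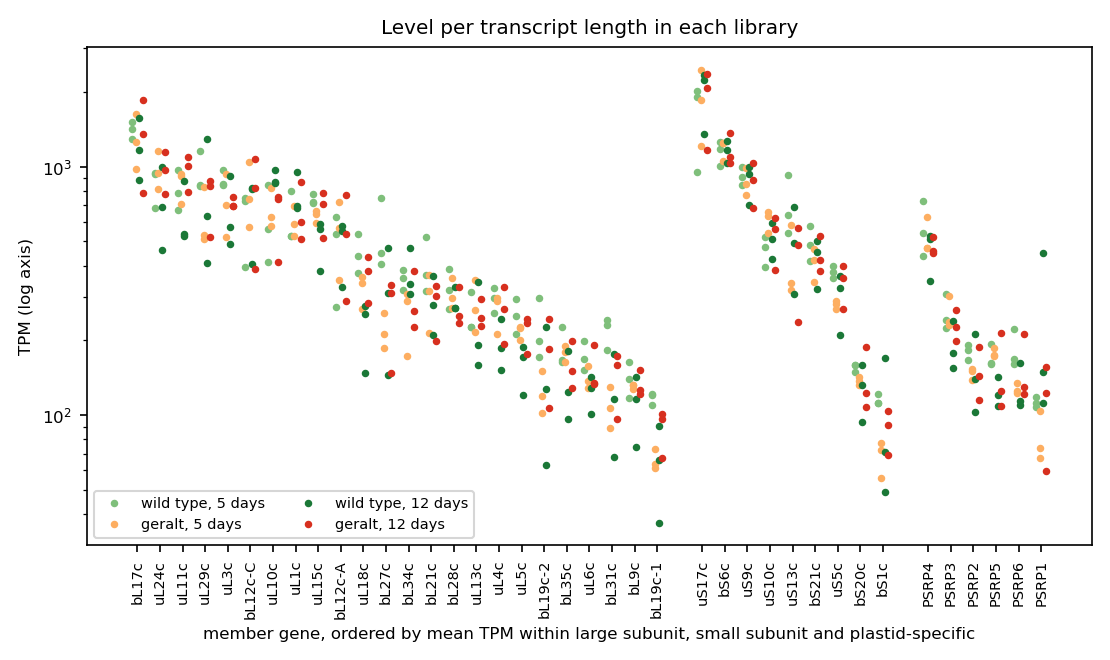
TPM of each member in each of the 12 libraries (log axis), with members ordered by their mean TPM within the large subunit, the small subunit and the plastid-specific proteins and colours for the 4 groups of 3 libraries. uS17c reaches 2455 TPM, while bL19c-1 and bS1c lie near 100 TPM or below in most libraries.

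At 5 days the members lay mostly below wild type in geralt, by modest amounts. Of 39, 37 had a log2 fold change below 0, against 49.4% of all 21122 genes tested, and the median over members was -0.43, against 0.01 over all genes. The medians of the 3 classes were alike, at -0.43 for the large subunit, -0.43 for the small subunit and -0.45 for the plastid-specific proteins. On the authors' TPM scale, as log2(TPM + 1), the median of all genes itself moved to 0.21, and the members' median was -0.18, which is -0.39 relative to it. There 29 of 39 members were below 0, and 36 were below the median of all genes.

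No member passed edgeR's quasi-likelihood test at an adjusted p under 0.05 at 5 days, where 0.26% of all genes did. At an unadjusted p under 0.05, 15 members were lower and 0 higher by edgeR, against 7.64% of all genes lower and 6.5% higher. DESeq2 called 4 members lower, bL19c-1, bL27c, bL31c and uS5c, against 2.81% of all genes lower. The geralt libraries all lay below the wild-type libraries for 19 members, against 14.3% of all genes, and for 0 members above, against 12.9%.

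The log2 fold change farthest below 0 was that of bL27c (AT5G40950, chr5:16410782-16412114), whose bacterial counterpart reaches the peptidyl transferase centre. It stood at 297, 379.9 and 278 CPM in wild-type libraries 2, 4 and 8 and at 101, 114 and 126 CPM in geralt libraries 1, 3 and 7. The groups did not overlap, and the lowest wild-type library was more than 2 times the highest geralt library. The log2 fold change was -1.49 (SE 0.33), edgeR adjusted p = 0.0777.

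bL31c (AT1G75350, chr1:28272071-28273009), which in bacteria bridges the 2 subunits, stood at 142, 105 and 112 CPM in wild type and 51.6, 42.2 and 56.1 CPM in geralt at 5 days. The groups did not overlap here either. Its log2 fold change was -1.26 (SE 0.27), edgeR adjusted p = 0.0738.

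Both genes of bL19c, in bacteria a protein at the subunit interface, had log2 fold changes of like size at 5 days. bL19c-1 (chr5:19164184-19166135) stood at 84.9, 65.2 and 79.3 CPM in wild type and 36.7, 34.7 and 37.9 CPM in geralt, with a log2 fold change of -1.07 (SE 0.23) and the lowest edgeR adjusted p of any member in this comparison, 0.0688. bL19c-2 (AT4G17560, chr4:9780224-9782183) stood at 146, 196 and 178 CPM in wild type and 85.2, 71.5 and 96.8 CPM in geralt, a log2 fold change of -1.04 (SE 0.32), edgeR adjusted p = 0.176. In both genes every geralt library was below every wild-type library. The TPM ratio of bL19c-1 to bL19c-2 was 0.56 ± 0.15 (SD, n = 3) in wild type and 0.54 ± 0.058 in geralt at 5 days, a difference smaller than its SD.

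In the small subunit the values farthest below 0 at 5 days were those of bS1c and uS13c (AT5G14320), the latter a protein of the subunit head. bS1c stood at 134, 95.1 and 128 CPM in wild type and 69.5, 49.6 and 58.9 CPM in geralt, a log2 fold change of -1.01 (SE 0.32), edgeR adjusted p = 0.182. uS13c stood at 689.9, 773 and 604 CPM in wild type and 301, 279 and 465 CPM in geralt, a log2 fold change of -0.98 (SE 0.33), edgeR adjusted p = 0.203. The groups were apart in both genes. At the other end uS10c (AT3G13120) had a log2 fold change of 0.16 (SE 0.31) and uS17c one of -0.10 (SE 0.48), with overlapping groups.

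Among the plastid-specific proteins PSRP6 (AT5G17870), a large subunit component, was at 135, 75.0 and 106 CPM in wild type and 61.9, 59.9 and 60.2 CPM in geralt at 5 days. The geralt libraries were closely alike and all below wild type, with a log2 fold change of -0.79 (SE 0.30), edgeR adjusted p = 0.257. PSRP1 had -0.70 (SE 0.46), PSRP3 (AT1G68590) -0.26 (SE 0.28) and PSRP5 (AT3G56910) -0.21 (SE 0.31) on the same log2 scale.

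Other large subunit members whose groups were apart at 5 days were led by uL29c (AT5G65220), a protein near the exit tunnel, at -0.83 (SE 0.31), bL34c (AT1G29070) at -0.73 (SE 0.30) and uL18c (AT1G48350), a protein that binds 5S rRNA, at -0.73 (SE 0.24). Nearest to or above 0 in that subunit were uL24c (AT5G54600) at -0.08 (SE 0.37) and bL12c-C (AT3G27850) at 0.06 (SE 0.51).

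The calls at 5 days differed between fits. A fit to the 6 libraries of 5 days alone called 5 members lower by edgeR (bL19c-1, bL19c-2, bL27c, bL31c and bS1c), where 3.07% of all genes were called lower. In the fit to all libraries, leaving out wild-type library 12 of 12 days gave 3 calls, of bL19c-1, bL27c and bL31c. Leaving out wild-type library 10 or geralt library 5 of 12 days gave 1, of bL19c-1. The number of all genes called in either direction moved as well. It was 208, 67 and 314 in the same order, where 55 were called with every library kept. The authors' deposited table for 5 days lists an FDR-adjusted p under 0.05 for 10 of the 39 members, all lower, against 5.51% of the genes with a value there. Its log2 fold changes were close to those above, for example -1.49 for bL27c and -1.25 for bL31c in the authors' deposited table.

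**Figure D2:**
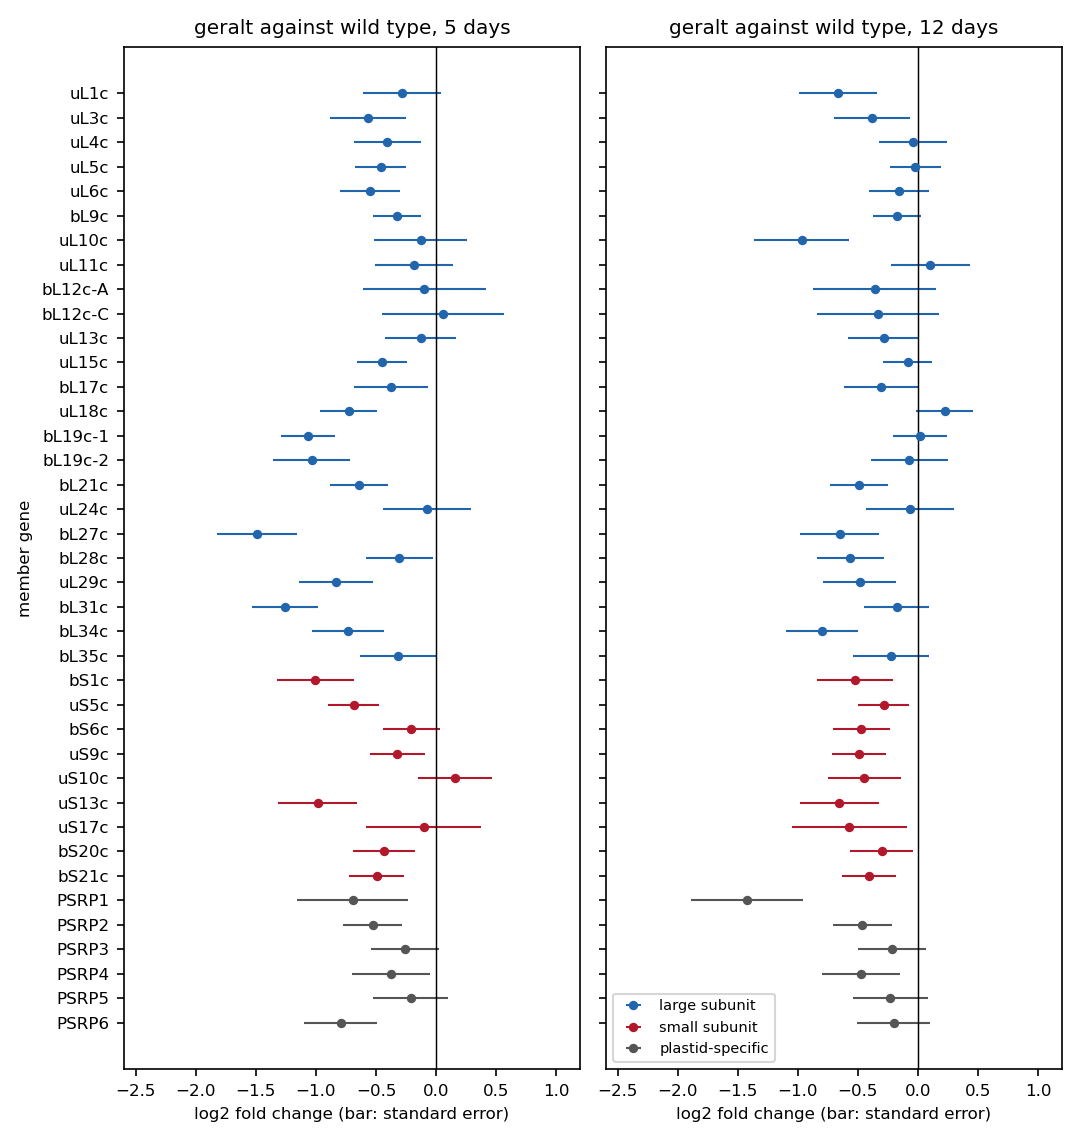
Log2 fold change of geralt against wild type for each member at 5 days (left) and 12 days (right), from TMM-scaled counts, with bars for the standard error and colours for the 3 classes. At 5 days 37 of 39 points lie left of 0 and at 12 days 36 of 39, whereas on the TPM scale 10 of 39 are below 0 at 12 days and the 12-day median of the members is above 0, at 0.11, under the all-gene median of 0.41.

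At 12 days the members again lay mostly below wild type on the TMM scale, with less separation of the libraries. The log2 fold change was below 0 for 36 of 39 members, against 51.6% of all genes, and the median was -0.33, but on the authors' TPM scale it was above 0, at 0.11, where the median of all genes was 0.41. Relative to all genes the members' median on the TPM scale was -0.30. By class the TMM-scaled medians were -0.26 for the large subunit, -0.47 for the small subunit and -0.35 for the plastid-specific proteins, and all 9 small subunit members were below 0. On the TPM scale 10 of 39 members, 3 of the 9 of the small subunit among them, were below 0, while 32 of 39 and all 9 of the small subunit were below the median of all genes. The class medians there were 0.24, 0.02 and 0.14 in the same order. Without geralt library 11, which was the highest of its group for 35 of 39 members, the median of all members was -0.64.

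No member passed edgeR's test at 12 days, where 0.8% of all genes did. At an unadjusted p under 0.05 edgeR had 3 members lower and 0 higher, against 9.49% of all genes lower and 9.47% higher, which is no larger a share for the members than for genes in general. DESeq2 called 1 member, PSRP1, against 6.47% of all genes. In the authors' deposited table for 12 days 0 members have an FDR-adjusted p under 0.05, against 1.48% of its genes with a value, counting lower ones. The libraries of the genotypes were apart for 3 members, all lower in geralt, against 8.91% of all genes.

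PSRP1 (chr5:8365601-8367460) had the log2 fold change farthest below 0 at 12 days. It stood at 111, 181 and 386 CPM in wild-type libraries 6, 10 and 12 and at 36.5, 94.8 and 122 CPM in geralt libraries 5, 9 and 11. Wild-type library 12 was far above the rest, geralt library 5 was far below, and the groups overlapped between geralt library 11 and wild-type library 6. The log2 fold change was -1.42 (SE 0.47), edgeR adjusted p = 0.142, and it ranged from -1.77 to -0.79 when libraries were left out.

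uL10c (AT5G13510), which anchors the stalk of bL12 proteins on the large subunit, stood at 551, 748 and 469 CPM in wild type and 164, 364 and 377 CPM in geralt at 12 days. Every geralt library lay below every wild-type library, with a log2 fold change of -0.97 (SE 0.39), edgeR adjusted p = 0.216. bL34c stood at 210.1, 234 and 255 CPM in wild type and 87.5, 128 and 187 CPM in geralt, again without overlap, at -0.80 (SE 0.30), edgeR adjusted p = 0.188.

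The large subunit members farthest below 0 at 5 days had values nearer to 0 at 12 days, a difference tested below as an interaction. bL27c stood at 225, 129.7 and 295 CPM in wild type and 139, 84.3 and 190.5 CPM in geralt, overlapping, with a log2 fold change of -0.65 (SE 0.33). bL31c had -0.18 (SE 0.27), bL19c-1 0.02 (SE 0.22) and bL19c-2 -0.07 (SE 0.32) at 12 days. In the small subunit uS13c had -0.65 (SE 0.33) and uS17c -0.57 (SE 0.48) at the low end, and bS20c (AT3G15190) -0.30 (SE 0.26) and uS5c (AT2G33800) -0.28 (SE 0.21) at the high end. Above 0 at 12 days were uL18c at 0.22 (SE 0.23), uL11c (AT1G32990), a protein of the factor-binding site, at 0.10 (SE 0.33), and bL19c-1.

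**Figure D3:**
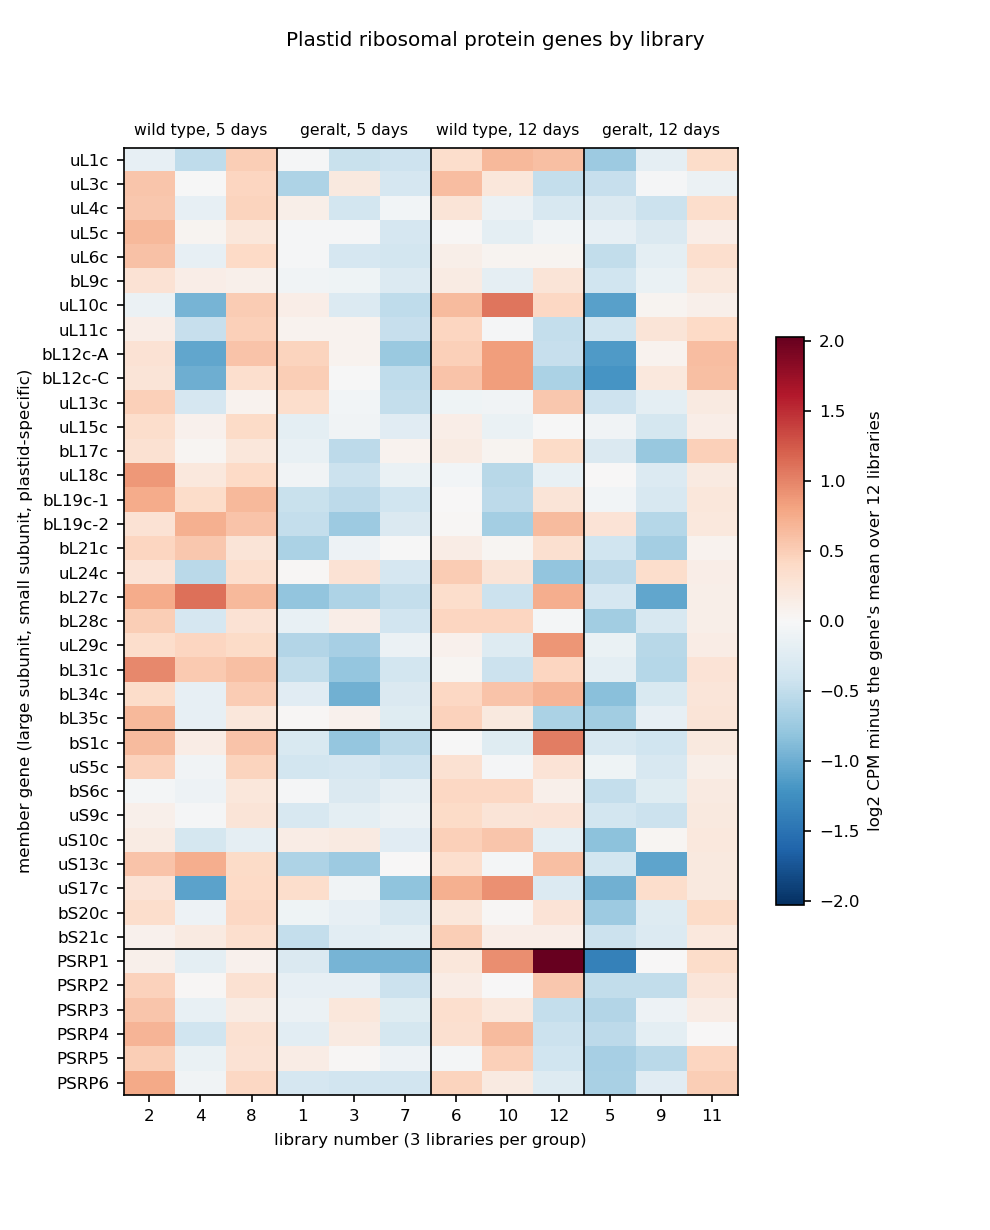
Log2 CPM of each member (rows, by class) in each library (columns, by group), minus the gene's mean over all 12 libraries; red is above and blue below that mean. In wild type at 5 days library 4 is the lowest of its group for 32 of 39 members, and in geralt at 12 days library 11 is the highest of its group for 35 of 39.

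Averaged over both ages, all 39 members had a log2 fold change below 0, against 49.5% of all genes, with a median of -0.40. On the TPM scale the median was -0.03, or -0.35 relative to all genes, and 22 of 39 were below 0. edgeR called 2 members, both lower, against 5.53% of all genes called in either direction and 3.32% lower, so the members were called about as often as genes in general. At an unadjusted p under 0.05, 16 were lower and 0 higher, against 11% and 9.82% of all genes. DESeq2 called 11 members lower, against 6.11% of all genes.

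The members that edgeR called were bL27c, lower by 1.07 on the log2 scale (SE 0.23, edgeR adjusted p = 0.0235), and bL31c, lower by 0.72 (SE 0.19, edgeR adjusted p = 0.0479). Both are large subunit proteins. bL27c was lower in geralt at 5 days in every library and at 12 days by group mean, at 138 ± 53.1 CPM against 217 ± 82.9 CPM (SD, n = 3). bL31c was at 66.9 ± 20.2 CPM in geralt and 75.7 ± 22.5 CPM in wild type at 12 days, a difference within the spread.

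Next in the large subunit was bL34c, at -0.76 (SE 0.21), edgeR adjusted p = 0.0555, the only member of that subunit whose geralt libraries lay below the wild-type libraries at both ages. Over all members this held for 2, bL34c and uS9c (AT1G74970), against 3.07% of all genes. In the small subunit uS13c had -0.82 (SE 0.23), edgeR adjusted p = 0.0601, and bS1c -0.76 (SE 0.23), edgeR adjusted p = 0.0709. Of the plastid-specific proteins PSRP1 had -1.06 (SE 0.33), edgeR adjusted p = 0.0826. Nearest 0 were uL11c at -0.04 (SE 0.23) and uL24c at -0.07 (SE 0.26).

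Neither call held throughout. bL27c was not called on the TPM scale (limma adjusted p = 0.106), nor in 5 fits that each lacked 1 library of 5 days (geralt 1, 3 or 7, wild type 2 or 8, edgeR adjusted p up to 0.0644), and bL31c was called by edgeR only without wild-type library 10 or geralt library 11 of 12 days among the 12 fits that each left out 1 library.

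The difference between the ages in the geralt effect was tested as an interaction. No member and no gene at all passed edgeR's test (0% of all genes), and DESeq2 called 0 members, against 0.279% of all genes. By edgeR 3 members had an unadjusted p under 0.05, against 4.84% of all genes in the same direction. In all 3 the log2 fold change of geralt against wild type was higher at 12 than at 5 days. The 3 were bL19c-1, at 1.09 (SE 0.32), uL18c, at 0.95 (SE 0.33), and bL31c, at 1.08 (SE 0.38), with edgeR adjusted p of 0.438, 0.438 and 0.441. The opposite sign was farthest for uL10c, at -0.84 (SE 0.55), PSRP1, at -0.73 (SE 0.65), and uS10c, at -0.60 (SE 0.43).

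The median interaction over members was 0.09, against 0.02 over all genes, and without geralt library 11 it was -0.11. An effect seen at 5 days and not at 12 days is therefore not shown to differ between the ages for any member.

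uL18c stood at 335, 211 and 241 CPM in wild type and 174, 135 and 166 CPM in geralt at 5 days, and at 176, 124 and 164 and 185, 151 and 206 CPM at 12 days. Wild type at 5 days was the group that stood above the other 3, and no library of the other groups reached its lowest value. For bL19c-1 the 12-day values were 50.7, 34.8 and 60.1 CPM in wild type and 48.3, 40.1 and 58.7 CPM in geralt, with full overlap and all below wild type at 5 days.

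**Figure D4:**
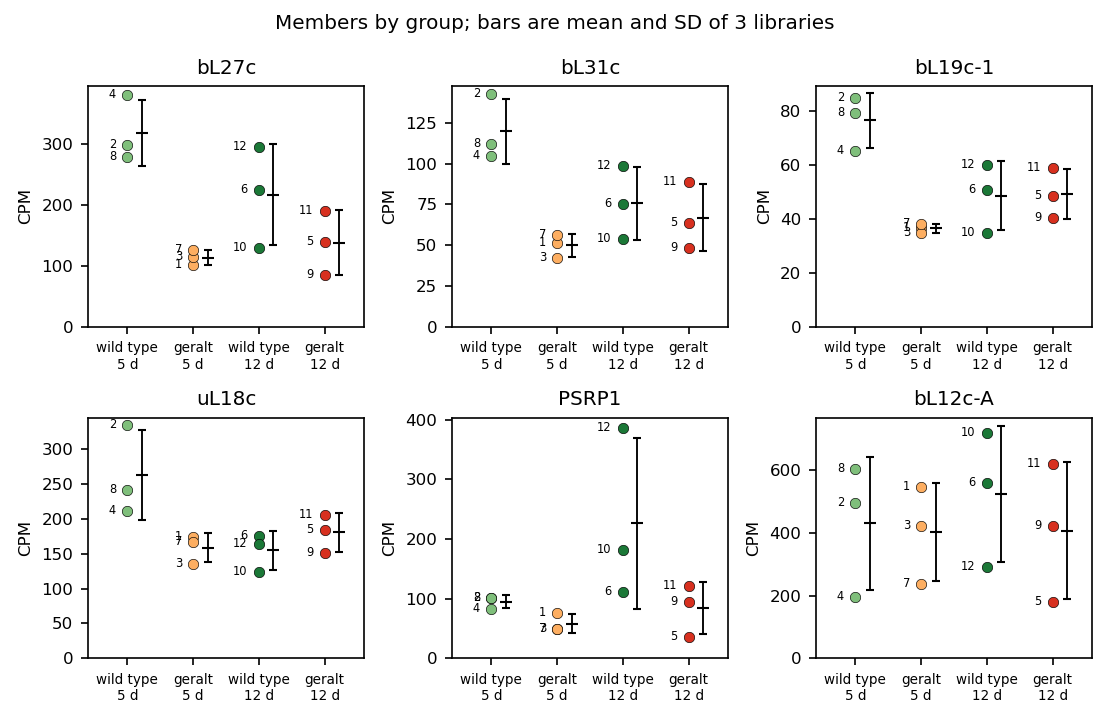
CPM of 6 members in the 4 groups, each point a library with its number, with bars for the mean and SD of 3 libraries. bL27c, bL31c, bL19c-1 and uL18c are apart between the genotypes at 5 days and overlap at 12 days; PSRP1 is highest in wild-type library 12, and bL12c-A spreads widely within each group.

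From 5 to 12 days in wild type the members lay on both sides of 0. edgeR called 0 members and 0% of all genes, 3 members were lower and 1 higher at an unadjusted p under 0.05, against 9.17% and 10.6% of all genes, and DESeq2 called 1, uL18c, against 5.35% of all genes. The median log2 fold change over members was -0.08, with a range from -0.76 for uL18c to 1.26 for PSRP1. On the TPM scale the median was -0.36, with all genes at -0.22. Groups were apart for 4 members that were lower at 12 days, against 12.1% of all genes, and for 2 that were higher, against 10.8%.

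PSRP1 stood at 101, 81.8 and 101 CPM at 5 days and, as above, at 111 CPM or more at 12 days in wild type, a log2 fold change of 1.26 (SE 0.46), edgeR adjusted p = 0.181. Its log2 fold change was 0.63 with wild-type library 12 left out. uL10c was at 324, 184 and 502 CPM at 5 days, overlapping its 12-day values, with 0.81 (SE 0.39), and uL1c (AT3G63490), the protein of the L1 stalk, had 0.55 (SE 0.32). On the low side uL18c had -0.76 (SE 0.24), edgeR adjusted p = 0.154, and bL31c -0.66 (SE 0.27). Small subunit members ran from -0.25 (SE 0.33) for uS13c to 0.54 (SE 0.48) for uS17c.

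In geralt the log2 fold changes of members from 5 to 12 days were small. edgeR called 0 members and 0% of all genes from 5 to 12 days, 0 members had an unadjusted p under 0.05, where 4.61% of all genes did, and DESeq2 called 0, against 0.284%. The median was 0.07, and -0.11 without geralt library 11. The range ran from -0.20 (SE 0.31) for PSRP5 to 0.53 (SE 0.46) for PSRP1, with bL19c-2 at 0.51 (SE 0.32) and bS1c at 0.39 (SE 0.32) the highest of the 2 subunits.

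Spread within the groups differed strongly between members. The pooled within-group SD of log2 CPM was largest for the stalk proteins bL12c-A (AT3G27830, chr3:10318455-10319920), at 0.78, and bL12c-C (chr3:10324788-10325746), at 0.77, which recruit translation factors to the ribosome, followed by uS17c at 0.71 and PSRP1 at 0.68. It was smallest for uL15c (AT3G25920), at 0.17, and uS9c, at 0.20.

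bL12c-A stood at 494, 194 and 602 CPM in wild-type libraries 2, 4 and 8 and 548, 421 and 238 CPM in geralt libraries 1, 3 and 7 at 5 days, and at 559, 719.6 and 289.9 CPM in wild-type libraries 6, 10 and 12 and 181, 422 and 619 CPM in geralt libraries 5, 9 and 11 at 12 days. bL12c-C stood at 482, 202 and 510.2 and 567, 397 and 279 CPM at 5 days, and 600.4, 724 and 256 and 175, 466 and 615 CPM at 12 days. uS17c stood at 933, 361 and 1019 and 987, 731 and 437 CPM at 5 days, and 1265, 1464 and 633 and 390.5, 988 and 883 CPM at 12 days.

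All 3 had their lowest value of each group in the same libraries, 4, 7, 12 and 5. In those libraries bL27c was the highest of its group in 4, 7 and 12 and lay between the other two in 5. Libraries 4 and 12 were the deepest, with 115.03 and 91.6 M reads, and libraries 5 and 7 held 43.9 and 46.4 M reads. The part of depth or any other library property in this spread was not tested. With an SE near 0.5, fold changes of the bL12c genes between genotypes were not resolved at either age, at -0.10 (SE 0.51) and -0.36 (SE 0.52) for bL12c-A.

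The TPM ratio of bL12c-A to bL12c-C stayed between 0.61 and 0.85 over the 12 libraries. For each of these genes 98.5% of reads were unique to it, against 100.0% for the other 37 members, so a small part of the reads may be split between them. In 16 of 39 members the annotated gene overlaps another listed gene, in bL28c (AT2G33450) over 47.6%, in bL12c-A over 30.0% and in uS17c over 27.9% of its length, on the opposite strand in these 3. The sources used here do not say whether the counting used strand, so reads of the 2 genes may not be told apart there. The overlap is 23.6% in uS13c, 23.4% in uL18c, 17.75% in uL10c and 8.55% in PSRP1, also on the opposite strand. For bL31c the overlap is 1.17%, and bL27c has none.

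Read against other gene lists, the members' 5-day median of -0.43 was near that of 14 plastid translation factors, at -0.45, of which edgeR called 0 and had 5 at an unadjusted p under 0.05, and DESeq2 called 1. At 12 days the translation factors' median was -0.22, with 9 of 14 below 0, against -0.33 and 36 of 39 for the members. On the TPM scale these 12-day medians were 0.25 and 0.11. Of the translation factors at 12 days edgeR and DESeq2 called 0, with 1 at an unadjusted p under 0.05 by edgeR. Nuclear photosynthesis genes lay much lower, with medians of -1.56 at 5 and -1.57 at 12 days, with 0 called by edgeR at either age but 16 of 18 at an unadjusted p under 0.05 at each, and with 10 and 12 called lower by DESeq2. By the mean of both ages all 18 had a log2 fold change below 0. edgeR called 15 of 18 lower, led by PETC (log2 fold change -1.27, edgeR adjusted p = 0.0108), PSBQ2 (-1.99, edgeR adjusted p = 0.0117), LHCB3 (-2.06, edgeR adjusted p = 0.0120) and PSBP1 (-1.49, edgeR adjusted p = 0.0123). These encode the Rieske protein, a pair of oxygen-evolving complex proteins and a light-harvesting antenna protein.

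The plastid-encoded ribosomal proteins, partners of the members in the same particle, lay on the other side of 0. Of 26 listed genes 22 were tested, with a median of 0.53 at 5 and 1.90 at 12 days on the TMM scale, above 0 on the TPM scale too. edgeR called 0 of them at 5 days (1 at an unadjusted p under 0.05, 0 by DESeq2), 5 higher at 12 days and 9 higher by the mean of both ages, led by RPS12C (1.79, edgeR adjusted p = 0.0117), RPL16 (1.44, edgeR adjusted p = 0.0134), RPS7.1 (1.60, edgeR adjusted p = 0.0148) and RPS12B (1.74, edgeR adjusted p = 0.0166). Of all 21122 genes tested, edgeR called 92 higher at 12 days and 466 by the mean of both ages. DESeq2 called 11 and 12 of the list higher in the same order, against 657 and 989 of all genes. At an unadjusted p under 0.05 edgeR had 15 higher in each, against 2001 and 2074 of all genes. RPS12B and RPS12C, like both copies of RPS7, lie in repeated sequence, so their counts are not separate measurements. Plastid transcripts are mostly without a poly(A) tail, and the libraries were made from polyadenylated RNA, so these values cover only the fraction that was captured. Wild-type library 12 was the lowest for this list, with a median 2.53 below the genes' means over all libraries on the log2 scale.

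The other ribosomes showed other values. Medians of 34 cytosolic ribosomal protein genes were -0.28 at 5 and 0.47 at 12 days for geralt against wild type (on the TPM scale -0.04 and 0.95), and -0.76 for 12 against 5 days in wild type, with 0 called by edgeR in any of these, 0, 7 and 25 at an unadjusted p under 0.05, and 0, 0 and 8 by DESeq2. Medians of 6 mitochondrial ribosomal protein genes were -0.10 and 0.43 at the 2 ages, and those of 15 plastid ribosome assembly factors -0.09 and 0.22, with 0 called by edgeR in either list at either age. On the TPM scale these medians were 0.15 and 0.90 for the mitochondrial and 0.15 and 0.66 for the assembly genes, so that the sign at 5 days turned. At an unadjusted p under 0.05 edgeR had 0 and 2 of the mitochondrial and 1 and 2 of the assembly genes at the 2 ages, and DESeq2 called 1 mitochondrial gene, higher, at 12 days and no other gene of both lists. Root markers had medians of 0.30 and -0.08, or 0.47 and 0.56 on the TPM scale, with 0 called by edgeR or DESeq2 and 1 and 0 at an unadjusted p under 0.05, and only 2 seed markers had enough reads for a test.

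**Figure D5:**
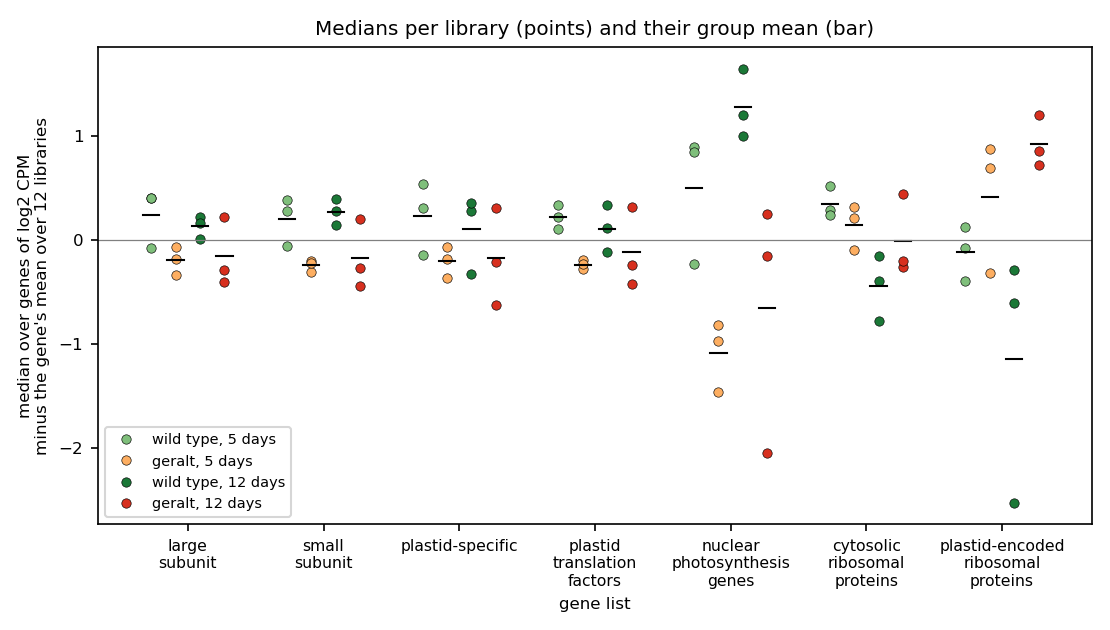
Median per library of log2 CPM minus the gene's mean over 12 libraries, for the 3 member classes and 4 other lists; each point is a library and each bar the mean of 3 libraries. The 3 member classes are lower in geralt by group mean at both ages; libraries of the genotypes overlap at 12 days in all 3 and at 5 days in the large subunit and the plastid-specific proteins, and are apart at 5 days in the small subunit (on the TPM scale the members' median at 12 days is above 0, at 0.11, with all genes at 0.41), while nuclear photosynthesis genes spread more widely and plastid-encoded ribosomal proteins lie higher in geralt by group mean.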

How the data were processed

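Messenger RNA of 12 seedling libraries, 3 in each of 4 groups named in the titles, was counted per gene by the authors. The build was TAIR10, per the submitters' processing notes. Aligner, counter, use of strand and whether a pair counts once were not given in the sources used here. The authors deposited raw counts of total, unique and exon reads per gene, per the file headers, and TPM values that sum to 1000000 per library. Their 2 tables of comparisons hold log2 fold changes and p-values, per the file headers, from a test those tables do not name.

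Total gene reads (41.6 to 115.03 M per library, 99.2% to 99.5% unique) were filtered by filterByExpr to 21122 genes, scaled by TMM and tested with edgeR 4.0.16 (quasi-likelihood F-test) in 1 fit to all 12 libraries with 8 residual degrees of freedom. The Benjamini-Hochberg adjustment ran over all tested genes, with a threshold of 0.05. Contrasts were geralt against wild type at each age and over the mean of both, 12 against 5 days in each genotype, and the interaction. Standard errors are the absolute log2 fold change over the square root of F. CPM are TMM-scaled, with a prior count of 2 on the log scale. The fitting code was tested on simulated data. Alternatives were RLE scaling, no filter, DESeq2 1.42.0, unique reads, exon reads, organelle genes left out, the compared groups alone, limma 3.58.1 on log2(TPM + 1) and log2(TPM + 0.1), and each library left out. The pseudocount understates changes of genes with low TPM. For limma, genes needed a TPM of at least 1 in 3 libraries.

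The members were given as a list and not chosen by their values. That list, the comparison lists, motifs and tests were set with earlier results of these data known. All 39 members may be named. Full values go to members past the threshold, the extremes of each class in a contrast, the highest and lowest TPM of a class and the related pairs, and of other lists to at most 4 genes past the threshold. Upstream windows of 250 bases come from TAIR10.1, whose gene starts and ends equal the files' for 27432 of 27445 nuclear genes. Libraries of a group differed in their counts by more than sampling noise in every pair. Lanes are not given per library, so lane could not be a term in any fit.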

Additional observations from a re-analysis of the deposited data

How the results depend on the processing

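No paired analysis was possible because the library numbers 1 to 12 are not shared between groups. The members' median log2 fold change, -0.43 at 5 and -0.33 at 12 days in geralt against wild type, kept its sign and size under RLE scaling, no filter, DESeq2, unique or exon reads, organelle genes left out and the compared groups alone. On the TPM scale, where the all-gene median is itself shifted, it was -0.18 at 5 days with either pseudocount and reversed to 0.11 at 12 days. It was -0.36 or -0.37 for 12 against 5 days in wild type and -0.035 for the mean of both ages. For that mean 0 members were called, where limma called 3178 of all genes with a pseudocount of 1 and 3140 with 0.1. DESeq2 called 4 members at 5 days, 1 at 12 days, 1 for wild-type age and 11 for the mean of both ages, where edgeR called 0, 0, 0 and 2. The groups compared alone gave 5 at 5 days. With each library left out in turn, the median ranged from -0.57 to -0.36 at 5 days, -0.64 to -0.23 at 12 days, -0.51 to -0.33 for the mean of both ages, -0.20 to -0.0022 for wild-type age, -0.11 to 0.24 for geralt age and -0.11 to 0.21 for the interaction, the last 2 changing sign when geralt 11 was missing. Counts ranged from 0 to 3 at 5 days and 0 to 6 for the mean of both ages, and were 0 elsewhere. The 3 at 5 days came where 208 of all genes were called, against 55 with every library kept. For the mean of both ages the count was 0 when geralt 1, 3 or 7 or wild type 2 or 8 was missing, where 488, 493, 485, 399 and 366 of all genes were called. It was 1 when geralt 5 or 9 or wild type 12 was missing, where 811, 574 and 1020 genes were called. It was 4 when wild type 10 and 6 when geralt 11 was missing, where 1053 and 1330 genes were called. With no library missing, 1167 of all genes were called. Leaving out wild-type library 4 and geralt library 5 together, an alternative chosen after seeing the data, gave 2 members at 5 days, 0 for the mean of both ages and an interaction median of 0.33. That fit called 547 of all genes at 5 days and 850 for the mean of both ages. The cause of these differences was not tested. The smallest depth of any member in a library was 1343 reads, and the parts of counting error and of spread between libraries were not tested.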
